A study of Mus musculus with 2 samples.

Results

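Processed pseudogenes are copies of messenger RNAs that were reverse transcribed and inserted into the genome, usually without introns and without the promoter of the gene they came from. Most descend from abundant housekeeping messages such as those of ribosomal proteins, and many keep long stretches identical to their source gene. Some are transcribed from a neighbouring promoter, and a few have become functional retrogenes. A short read from such a stretch carries the same letters whichever gene it came from, so a level given for a young copy rests on how reads are shared between it and its source.

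The members described here are the 10244 genes, of 55450 mouse genes in the tables, with at least 1 transcript annotated as a processed pseudogene or a transcribed processed pseudogene. Transcripts were summed to genes. Of the members, 9943 had only processed_pseudogene transcripts among these biotypes and 301 had a transcribed_processed_pseudogene transcript. A single transcript made up 10004 of the gene records, while 240 records also held transcripts of other biotypes, so that their gene level is not that of the pseudogene transcript alone. The symbols of 8822 members begin with Gm and 682 carry the suffix -ps. The median member was 531 bases long.

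Total RNA came from the hearts of 2 untreated adult females of the strain B6CASTF1/J, in which each animal carries 1 set of chromosomes from C57BL/6J and 1 from CAST/EiJ, aged 8 to 10 months. Replicate 1 is the animal numbered 1 and replicate 2 the animal numbered 3; there is 1 group, and no test between groups was possible. A directional kit was used on 300 ng of RNA per library, and ERCC spike-ins were added. Reads were assigned to mm10, which represents only the C57BL/6J parent. The gene tables, made from transcriptome alignments, held 42223411 and 40553237 expected counts, and the tables made directly from FASTQ reads held 43782858 and 41468698 estimated counts. The defining heart muscle genes were high in the gene tables, with Myh6 at 8814 and 7761 TPM (transcripts per 1000000) and Tnnt2 at 3243 and 3121 TPM, while the liver gene Alb was at 0.020 and 0 TPM.

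Sequence shared with other genes was measured with words of 31 bases read along each annotated transcript. A word was unique if no transcript of another gene held it. The source gene of a member was taken as the protein-coding gene that shared the most words with it. Any shared word was enough, with no further minimum. By this rule such a gene was found for 7126 members (69.6%), which traced to 2500 source genes, with ties in 619 cases. Some matches rest on few words: Gm11512 shared 38 of its 633 words with its source mt-Co1. The source is thus the best match by words, and descent from it was not tested. A tie went to the gene named in the member's symbol, or else to the gene with the highest gene-table level. The median share of unique words was 85.5%, but 394 members had no unique word, and 135 members lay letter for letter inside a transcript of their source. A further overlap joined members to each other, since 126 had the same sequence as another member.

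The member with the highest gene-table level, Gm12338, shows what complete identity looks like. It lies at chr11:75599763-75599954 on the minus strand of mm10, inside an intron of Pitpna on the opposite strand. Its 192 bases are identical to the 192-base coding sequence of Cox7c, a subunit of cytochrome c oxidase, on chromosome 13. The run below is therefore the sequence of both genes.
Gm12338: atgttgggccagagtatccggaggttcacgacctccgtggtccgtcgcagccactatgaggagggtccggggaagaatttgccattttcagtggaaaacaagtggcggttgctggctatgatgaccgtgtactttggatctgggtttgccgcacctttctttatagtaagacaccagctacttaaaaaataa

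Other members differ from the source's coding sequence at a handful of bases. The pairs below are shown because the tables divided their counts differently or alike; each is the 60-base window with the most differences, and capitals mark the differing bases. Gm4459 (bases 107 to 166 of its transcript) is set beside Ndufab1, with 1 mismatch over 468 aligned bases. Oaz1-ps (bases 95 to 154) is set beside Oaz1, with 1 mismatch and 1 gap base over 684 aligned bases. Gm15459 (bases 84 to 143) is set beside Hspa8, with 5 mismatches over 1941 bases. Rps2-ps13 (bases 42 to 101) is set beside Rps2, with 7 mismatches over 882 bases.
Gm4459: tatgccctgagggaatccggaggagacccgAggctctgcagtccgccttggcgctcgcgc
Ndufab1: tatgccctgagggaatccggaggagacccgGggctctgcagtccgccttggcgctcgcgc
Oaz1-ps: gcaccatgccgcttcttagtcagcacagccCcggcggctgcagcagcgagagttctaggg
Oaz1: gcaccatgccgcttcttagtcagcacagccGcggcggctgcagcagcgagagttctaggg
Gm15459: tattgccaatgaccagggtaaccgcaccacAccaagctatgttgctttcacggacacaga
Hspa8: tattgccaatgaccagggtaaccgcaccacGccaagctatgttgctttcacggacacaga
Rps2-ps13: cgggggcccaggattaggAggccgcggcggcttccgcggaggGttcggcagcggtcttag
Rps2: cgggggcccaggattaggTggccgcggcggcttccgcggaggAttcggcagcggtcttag

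One prominent member has no such source. Gm19220 (chr12:40893485-40894287, plus strand, outside other genes) has 99.6% unique words and shared no word with a protein-coding gene. Bases 197 to 309 of its 803-base transcript are shown because they hold an uninterrupted run of 33 C, in capitals.
Gm19220: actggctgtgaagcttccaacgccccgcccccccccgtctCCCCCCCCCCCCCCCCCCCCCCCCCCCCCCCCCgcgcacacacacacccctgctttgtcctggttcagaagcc

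Few members were expressed. No count in either animal was given to 8355 members (81.6%) in the gene tables and to 8258 (80.6%) in the FASTQ-derived tables. A count of 0 allows up to 0.0711 and 0.0740 counts per 1000000 in the gene tables and up to 0.0685 and 0.0723 in the FASTQ-derived tables, a limit for counting error only. At 1 TPM or more in both animals, 350 members (3.42%) were expressed in the gene tables and 266 (2.60%) in the FASTQ-derived tables. The same count took in 20.9% and 20.8% of all mouse genes. Of the 301 members annotated as transcribed, 33 (11.0%) and 29 (9.63%) were expressed in the 2 tables, beside 317 (3.19%) and 237 (2.38%) of the 9943 others; no test was made of this difference.

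The 2 tables did not name the same members. Only 200 members were expressed in both, which is 57.1% of the gene-table list and 75.2% of the FASTQ-derived list. The gene tables alone listed 150 and the FASTQ-derived tables alone 66. At 10 TPM or more the counts were 136 and 86 members, and at 100 TPM or more 20 and 15.

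The members held a small share of all TPM. In the gene tables it was 1.29% in replicate 1 and 1.12% in replicate 2, or 1.21 ± 0.12% (SD, n = 2). In the FASTQ-derived tables it was 0.731% and 0.636%, or 0.684 ± 0.067% (SD, n = 2). As a share of counts the tables were closer, at 0.425 ± 0.032% of expected and 0.373 ± 0.031% of estimated counts (SD, n = 2). The 10 highest members made up 36.4% of member TPM in the gene tables and 42.3% in the FASTQ-derived tables. Gm7336 and Gm19220 weighed most in the FASTQ-derived share, which was 0.547% without them.

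The level of the same member often depended on the table. A member was compared where its mean over both tables and both animals was 1 TPM or more, and was called apart where log2 of (FASTQ-derived TPM + 0.1) over (gene table TPM + 0.1) was at least 1 in size with the same sign in both animals. Of 394 compared members, 197 (50%) were called apart, against 4.24% of all 12066 genes compared by the same rule. Higher in the FASTQ-derived tables were 51 members (background 1.63%), and lower were 146 (background 2.6%). For members the median log2 difference was -0.35 in replicate 1 and -0.31 in replicate 2, and near 0 over all compared genes. Only 20.1% of compared members lay within 1.2-fold in the 2 tables, against 76.9% of the other compared genes. Both tables come from the same reads of each library, so these differences carry no error between animals.

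**Figure D1:**
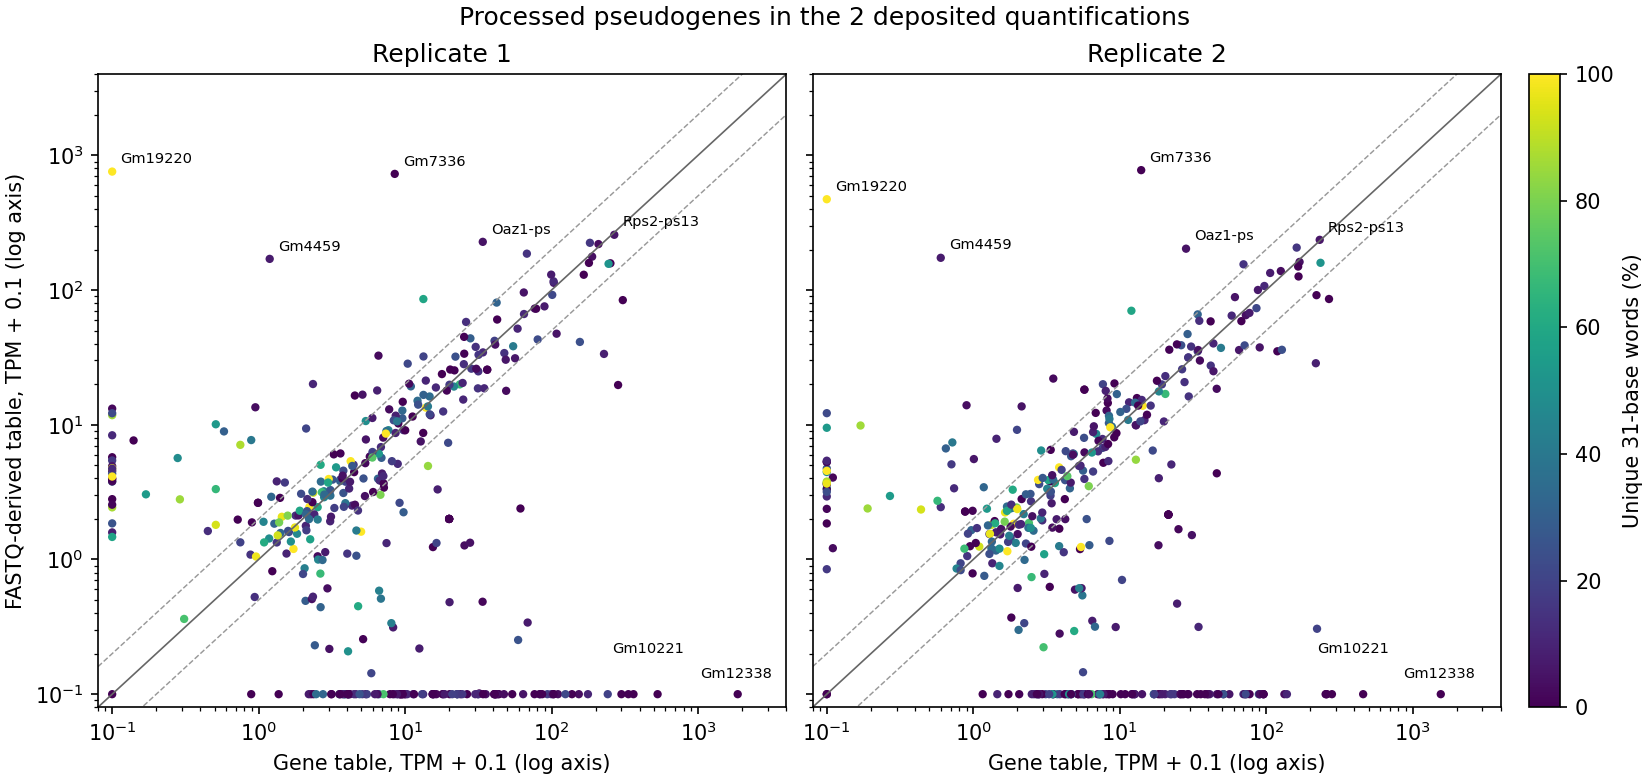
Each point is 1 of 394 compared members; the axes give TPM + 0.1 in the gene table and in the FASTQ-derived table on log scales, the solid line marks equal levels, dashed lines 2-fold, and colour the percentage of unique words. Many members sit at the bottom edge, listed at or near 0 in the FASTQ-derived tables at gene-table levels up to 1867 TPM, while Gm7336 and Gm19220 lie far above the line in both animals.

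Several of the members with the highest gene-table levels were listed at 0 in the FASTQ-derived tables. Gm12338 stood at 1867 and 1557 TPM in the gene tables, above its source Cox7c at 487 and 460 TPM. The FASTQ-derived tables listed Gm12338 at 0 in both animals. Its effective length, by which counts are divided to give TPM, was 92 bases in the gene tables, so that 5780 and 4856 expected counts gave this level. Cox7c itself went from 6953 and 6626 expected counts in the gene tables to 12668 and 11413 estimated counts in the FASTQ-derived tables.

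Some other copies of nuclear genes for mitochondrial proteins were also listed at or near 0 in the FASTQ-derived tables. Gm10221, a copy of the ATP synthase subunit gene Atp5l, was at 530 and 460 TPM in the gene tables and at 0 in the FASTQ-derived tables. Unlike Cox7c, Atp5l had fewer counts there, 8287 and 7447 estimated against 8999 and 7862 expected. The sources of the next 3 copies had more. Ndufb4c, identical over 390 bases to the coding sequence of the complex I subunit gene Ndufb4, went from 300 and 258 TPM to 0. Gm10250, a copy of the ATP synthase gene Atp5h, went from 242 and 222 TPM to 0 and 0.21 TPM. Mpc1-ps, a copy of a mitochondrial pyruvate carrier gene, went from 177 and 139 TPM to 0. In each of these the 2 animals lay close together within a table, and the tables did not overlap. All of these copies are on the list of members farthest apart between the tables, so the lack of overlap is set by that choice. The share of all genes without overlap is not given here.

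Copies of other gene classes were listed at 0 as well. Tpt1-ps3, from the gene of the translationally controlled tumour protein, stood at 363 and 255 TPM in the gene tables and at 0 in the FASTQ-derived tables. Gm12481, a copy of Serf2, stood at 334 and 281 TPM against 0. Among ribosomal protein copies, Rpl31-ps8 stood at 138 and 95.9 TPM against 0, and Gm45660, a copy of Rps19 of 151 bases, at 111 and 90.2 TPM against 0. Rps23-ps1 was uneven: it was at 285 and 259 TPM in the gene tables, but at 19.6 TPM in replicate 1 and near 0 in replicate 2 of the FASTQ-derived tables. In all, 87 members that reached 1 TPM in each animal of the gene tables were listed at 0 in both animals of the FASTQ-derived tables.

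Fewer members went the other way. Gm7336, a copy of the glycolytic gene Gapdh with no unique word and no mismatch over 1020 bases aligned to Gapdh coding sequence, stood at 8.40 and 13.9 TPM in the gene tables and at 728 and 777 TPM in the FASTQ-derived tables. Gm4459, the copy of the mitochondrial acyl carrier protein gene Ndufab1 shown above, went from 1.09 and 0.50 TPM to 170 and 173 TPM. Oaz1-ps, from the gene of ornithine decarboxylase antizyme, went from 33.8 and 28.3 TPM to 228 and 203 TPM. Gm15920, a copy of the complex I gene Ndufa12, went from 67.8 and 70.0 TPM to 186 and 155 TPM.

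Another 14 members had no expected count in either animal of the gene tables and 1 TPM or more in both animals of the FASTQ-derived tables. The highest was Gm19220, with 16492 and 9921 estimated counts and 758 and 472 TPM. In the M21 transcripts only 4 genes held a run of at least 31 C or G: Gm19220, the member record Zrsr1 with 38 C, and the non-members Gm26822 with 34 C and Grip2. Gm26822 was also listed at 0 in the gene tables and at 7.58 and 2.66 TPM in the FASTQ-derived tables. The Zrsr1 record had 7.29 and 8.52 TPM in the gene tables and 8.50 and 9.48 TPM in the FASTQ-derived tables. Its counts differed more than its TPM, with 727 and 848 expected counts and 1431 and 1371 estimated counts. The part of such runs in these levels was not tested. Vamp7-ps, all of whose words are unique, had 64 and 68 estimated counts and 4.03 and 4.45 TPM against no expected count.

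The median difference between the tables was largest for members with no sequence of their own. Among the 86 compared members with no unique word, the median log2 difference was -4.97 and -4.44 in the 2 animals, with 55 lower and 7 higher in the FASTQ-derived tables. With above 0 but under 10% unique words it was -0.68 and -0.39 over 97 members, of which 38 were lower and 14 higher. With 10% to under 50% it was -0.15 and -0.17 over 163 members, of which 45 were lower and 17 higher. For the 48 members with 50% or more unique words the median was 0.25 in both animals, and 13 were higher and 8 lower. The share of members apart did not fall steadily: from no unique word upward it was 72.1%, 53.6%, 38.0%, 50% (at 50% to under 90%) and 31.3% (at 90% or more). The median of members under 10% less that of members at 50% or more was -2.20 ± 0.33 (log2, SD, n = 2). Genes are not independent replicates, so this is a description across genes.

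**Figure D2:**
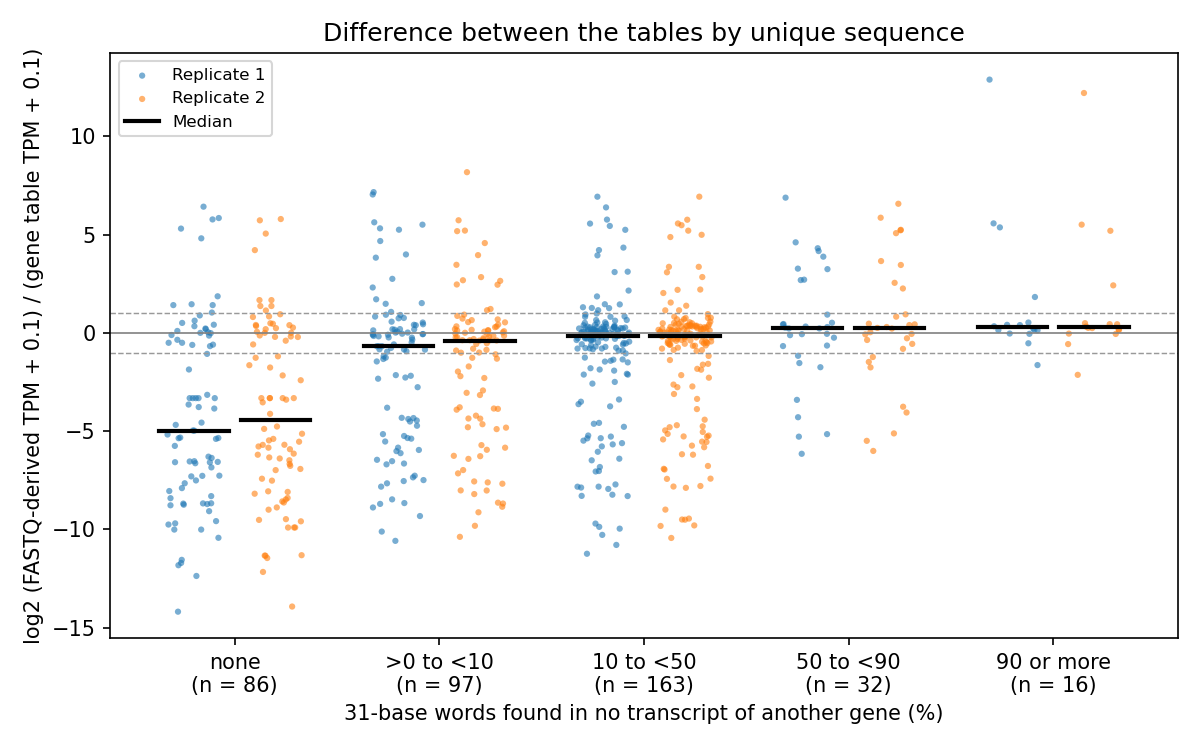
Points give the log2 ratio of FASTQ-derived to gene-table TPM (0.1 added to each) for compared members in each animal, by the percentage of unique words; black bars are medians and dashed lines mark 2-fold. The medians run from -4.97 and -4.44 with no unique word to slightly above 0 at 50% or more.

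Letter-for-letter containment was looked at separately. Of the 135 members inside a source transcript, 65 were expressed in the gene tables and 25 in the FASTQ-derived tables. Of the 71 compared, 45 were lower and 3 higher in the FASTQ-derived tables, and 42 were listed there at 0 in both animals. Among the 323 other compared members 101 were lower and 48 higher.

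Expression itself also went with shared sequence. Expressed in the gene tables were 19.3% of members with no unique word and 19.5% of those with above 0 but under 10%. The share was 8.34% at 10% to under 50%, 0.767% at 50% to under 90% and 0.240% at 90% or more. In the FASTQ-derived tables the corresponding shares were 9.14%, 14.7%, 6.63%, 0.934% and 0.327%.

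**Figure D3:**
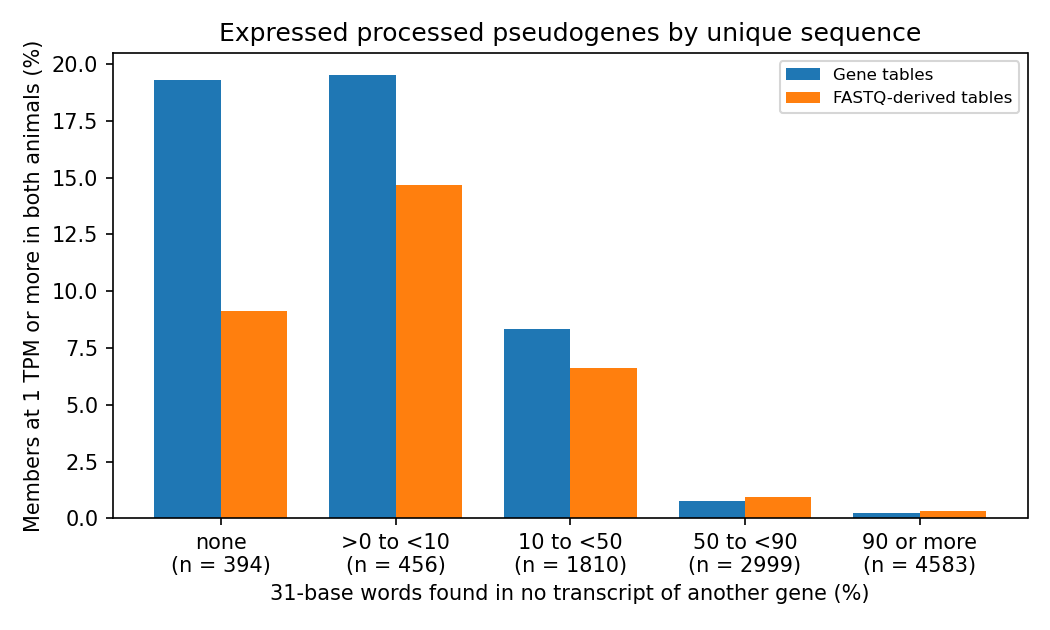
Bars give the percentage of members that reached 1 TPM in each animal in the gene tables and in the FASTQ-derived tables, by the percentage of unique words. Both tables have their lowest bars at 50% or more unique words, and the tables are farthest apart for members with no unique word, at 19.3% and 9.14%.

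Most of the expressed members had a source gene that was itself expressed. Of 3118 members without a source gene, 7 were expressed in the gene tables and 9 in the FASTQ-derived tables. Where the source lay under 1 TPM (mean over both tables and animals), 3 and 17 of 1120 were. Where it lay at 10 to under 100 TPM, 170 and 113 of 2567 were, and at 100 TPM or more, 139 and 94 of 2211. These numbers include reads that source and copy could share, and that part was not tested. Tied sources were also chosen partly by their level in these same data.

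Counts of source genes and their members were then summed. For 167 source genes with a member called apart and at least 100 counts over both libraries, the median absolute log2 difference between the tables was 0.14 for the source alone and 0.073 for source and members together. These log2 values were scaled to the total counts of each table, with 0.5 added. The tables lay within 1.25-fold in both animals for 124 of the 167 source genes alone and for 147 of the sums. The share over all genes by this rule is not given here. By a different measure, the mean log2 ratio of TPM, 76.9% of compared genes other than members lay within 1.2-fold. The source genes were chosen for a member that differed, so the members' own difference is set by the choice. Atp5g2, an ATP synthase c subunit gene, went from 164 and 212 expected counts to 4747 and 4078 estimated counts, while its member Gm10175 went from 5620 and 4961 to 1304 and 1278. In the FASTQ-derived tables the Gm10175 counts were those of another transcript of the record, and its pseudogene transcript was at 0. The sum of the family differed by a scaled log2 of 0.013 and 0.018. Oaz1 went from 7768 and 6576 counts to 4570 and 3697 as Oaz1-ps went from 666 and 561 to 3893 and 3331, and the sum differed by a scaled log2 of -0.047 and -0.054.

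In the other 20 families the sum itself lay over 1.25-fold apart in at least 1 animal. Gapdh and its 173 members went from 41923 and 39996 counts for the source and 1693 and 1248 for the members to 62964 and 58519 for the source and 28837 and 29828 for the members. The sum differed by a scaled log2 of 1.02 and 1.07. A further 63 members traced to Gm10358 rather than to Gapdh, and were not in that sum. The Atp5l family was lower in the FASTQ-derived tables, by -0.68 and -0.62, and that of Rpl36 by -1.62 and -1.55.

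**Figure D4:**
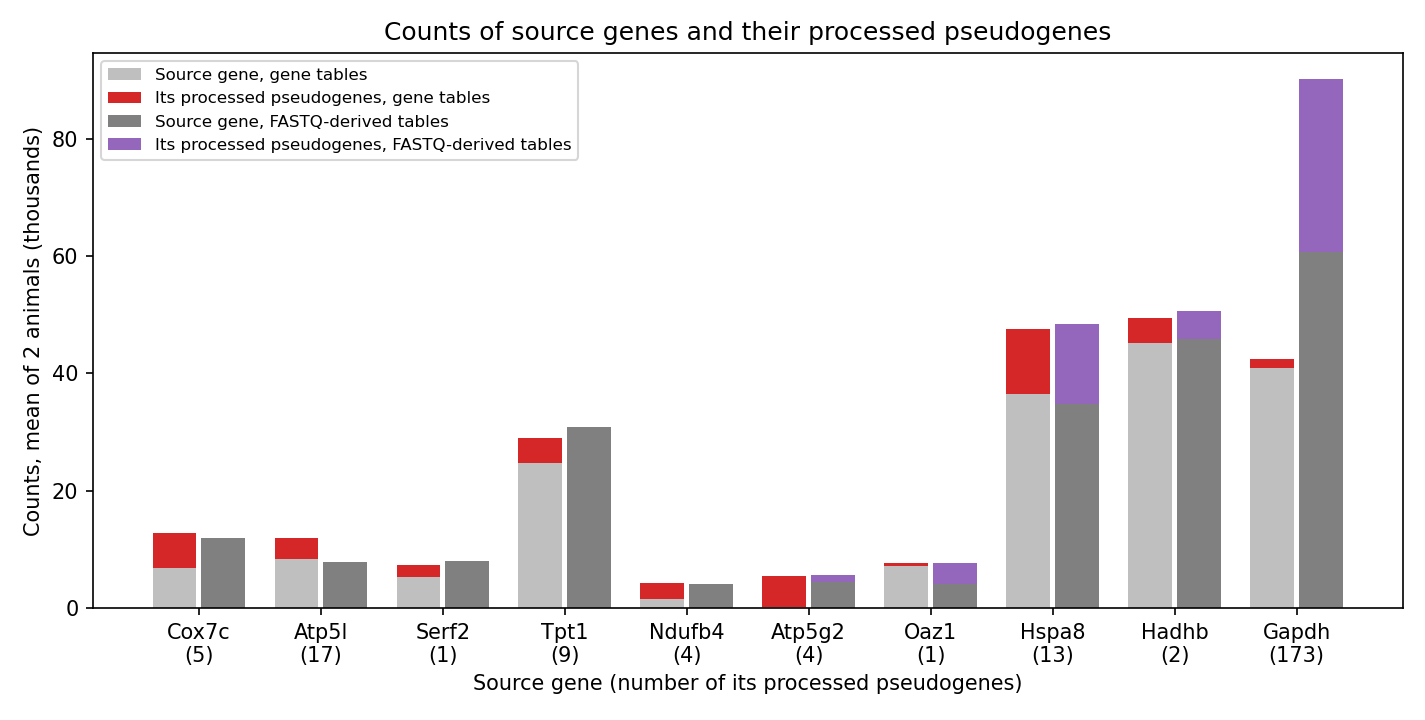
Stacked bars give counts divided by 1000 (mean of 2 animals) of 10 source genes and of their summed processed pseudogenes, side by side for the gene tables and the FASTQ-derived tables, with the number of members under each name. The total heights are alike for most pairs, such as Oaz1 and Atp5g2. Exceptions are Gapdh, whose total is about 2-fold higher in the FASTQ-derived tables, and Atp5l, whose total is lower there.

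Ribosomal protein copies were the most numerous family, with 1578 members from 90 source genes. Of these 91 (5.77%) were expressed in the gene tables and 61 (3.87%) in the FASTQ-derived tables, and they made up 37.9% and 38.9% of member TPM. Of 95 compared, 44 were lower and 2 higher in the FASTQ-derived tables, with a median log2 difference of -0.86 against -0.36 over all compared members. For this and the other families, the shares over all compared members were 37.1% lower and 12.9% higher. Over all compared genes they were 2.6% and 1.63%. No test was made between families. Rps2-ps13 (chrX:52898588-52899469, plus strand) held its level, at 268 and 232 TPM in the gene tables and 257 and 236 TPM in the FASTQ-derived tables. Its source Rps2 was at 282 and 255 TPM and at 335 and 297 TPM. Gm8730, a copy of the ribosomal stalk gene Rplp0, was at 103 and 97.2 TPM and at 116 and 107 TPM.

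The gene records of some ribosomal copies stood above their source. The Gm15500 record was at 180 and 165 TPM in the gene tables against 10.7 and 9.60 TPM for Rpl5, and at 159 and 149 TPM in the FASTQ-derived tables against 62.6 and 63.5 TPM. Gm10275 was at 189 and 169 TPM against 22.3 and 22.2 TPM for Rpl12 in the gene tables, and at 177 and 162 TPM against 40.2 and 35.8 TPM in the FASTQ-derived tables. Gm6472 was at 183 and 162 TPM against 108 and 95.3 TPM for Rps7, and at 224 and 207 TPM against 97.2 and 87.9 TPM. These 3 records hold more than 1 transcript, and the pseudogene transcript alone did not always stand so high. In the FASTQ-derived tables it was at 22.5 and 26.3 TPM in Gm15500, below Rpl5, and at 0 in Gm10275. In Gm6472 it was at 180 and 152 TPM, above Rps7. Of 385 compared members with a source, 30 gene records stood above it in both animals in the gene tables, 20 in the FASTQ-derived tables and 10 in both tables.

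Copies of nuclear genes for the respiratory chain, ATP synthase and mitochondrial carriers weighed less in the FASTQ-derived tables. They numbered 156, and their part of member TPM was 28.5% in the gene tables and 8.78% in the FASTQ-derived tables. Gm12338 alone, listed at 0 in the FASTQ-derived tables, had a mean of 1712 of the family's 3431 TPM in the gene tables. Of 16 compared, 10 were lower and 5 higher, with a median of -3.03. Glycolytic copies, 247 in number, went the opposite way, from 0.772% to 11.7% of member TPM, although 4 of the 7 compared were lower and only Gm7336 was higher. Gm5514, a copy of the lactate dehydrogenase gene Ldhb with 45.8% unique words, was steady at 21.5 and 18.4 TPM against 19.1 and 17.6 TPM.

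Of the other families, chaperones and prolyl isomerases had 136 members, 8 of them expressed in the gene tables and 7 in the FASTQ-derived tables. Gm15459, the copy of the constitutive chaperone gene Hspa8 shown above, was at 209 and 126 TPM and at 219 and 138 TPM. Hspa8 itself was at 694 and 424 TPM and at 1140 and 667 TPM, so both genes were lower in replicate 2 in both tables. Another chaperone copy, Gm10123 from the prolyl isomerase gene Ppia, went from 42.8 and 35.6 TPM to 0.

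The family of iron storage and ubiquitin genes had 9 members compared, of which 7 were lower and none higher, with a median of -5.20. All 9 traced to ubiquitin, Sumo or Ube2 genes, and none to an iron storage gene. The ubiquitin copy Gm1821 went from 228 and 218 TPM to 33.5 and 28.5 TPM. The 323 chromatin and nucleolar copies included 142 from the DNA-bending protein gene Hmgb1, of which 2 were expressed in each table. Gm15387, one of these, went from 61.3 and 45.9 TPM to 2.29 and 4.26 TPM. Of only 6 cytoskeletal copies compared, 1 was lower. Gm3226, from the tubulin gene Tuba1b, was at 16.1 and 14.1 TPM and at 18.8 and 15.2 TPM. Among 148 translation factor copies 13 and 10 were expressed, and Gm3531, from Btf3, was at 40.7 and 34.0 TPM and at 41.9 and 35.0 TPM.

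Few members traced to sarcomere and muscle genes, and the heart muscle genes Myh6 and Tnnt2 were not among their sources. Only 19 traced to the sarcomere and muscle list, 7 of them to Tpm3 and 6 to the myosin light chain gene Myl6, and 1 was expressed in each table. The Myl6 copy Gm5526 was at 13.2 and 12 TPM in the gene tables and 0 in the FASTQ-derived tables, and another, Gm8894, at 0.18 and 0 TPM against 5.56 and 4.36 TPM. The 10 members that traced to the mitochondrial genome had no value of 1 TPM in both animals in either table, although mt-Co1 stood at 35756 and 34807 TPM. The 10 families together held 2799 members and 170 of the 394 compared.

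A total of 151 members were expressed in both tables with under 2-fold between them. Their median share of unique words was 16.7%, and 132 had a lower bound of the deposited credibility interval at 1 TPM or more in both animals. Gm13910, a copy of the fatty acid oxidation gene Hadhb with 3 mismatches over 1428 bases, was at 104 and 87.8 TPM and at 113 and 100.04 TPM, against 956 and 821 TPM for Hadhb in the gene tables. Only 21 of the 151 had 50% or more unique words. In 6 of these 21 records the pseudogene transcript itself was under 0.1 TPM in both animals of the FASTQ-derived tables, so that other transcripts of the record carried the level; Rpl37rt was among them. In the Zrsr1 record it was at 0 TPM in replicate 1 and 1.54 TPM in replicate 2.

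Of the 21 records, 13 held a single transcript, and Gm13050 was the highest of these. Members apart between the tables, such as Gm19220, are not among them. Gm13050, a copy of the elongation factor gene Eef2 with 67.3% unique words, was at 23.5 and 20.4 TPM in the gene tables and 19.8 and 16.8 TPM in the FASTQ-derived tables. Gm6548, from Eef1a1, was at 6.52 and 6.36 TPM and at 6.001 and 6.12 TPM. Gm7832, from the mitochondrial channel gene Vdac2, was at 2.88 and 3.16 TPM and at 3.62 and 3.78 TPM. These 3 were named after their values were seen.

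The credibility intervals were wider for members than for other genes. Of the 350 expressed in the gene tables, 274 (78.3%) had a lower bound of 1 TPM or more in both animals, against 96.0% of other expressed genes. The median width of the interval was 0.51 and 0.54 of the TPM in the 2 animals, against 0.24 and 0.26 for other genes. The FASTQ-derived TPM fell inside the interval in both animals for 80 of 394 compared members (20.3%), against 51.7% of other compared genes. Identical copies were given equal values: Gm11518 and Rpl27-ps3 each had 1078 and 1009 expected counts.

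Where a member lay in the genome was read from the annotation. Outside other genes lay 7214 members, of which 228 (3.16%) were expressed in the gene tables and 172 (2.38%) in the FASTQ-derived tables. In introns of a gene on the same strand lay 1028, of which 38 (3.70%) and 35 (3.40%) were expressed. In introns on the opposite strand 51 (3.30%) and 33 (2.13%) of 1547 were. Of members that overlapped an exon of another gene, the expressed numbered 23 (7.96%) and 19 (6.57%) of 289 on the opposite strand and 10 (6.02%) and 7 (4.22%) of 166 on the same strand. Reads of the overlapping gene could count for these members, and that part was not tested. No member of the 94 on the Y chromosome was expressed in these females, and of 949 on the X chromosome 25 and 20 were.

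A larger share of members than of all genes differed 2-fold between the 2 animals. The log2 ratio of replicate 2 to replicate 1 (0.1 TPM added) was centred on the median of compared genes, which were those with a mean of 1 TPM and 20 counts over both libraries. At 2-fold or more, 33 of 369 compared members differed in the gene tables, against 1.42% of all genes, and 30 of 284 in the FASTQ-derived tables, against 1.39%. Within 1.2-fold lay 47.7% and 48.6% of members and 73.6% and 71.3% of all compared genes. With 1 library an animal, counting, read assignment and the animals themselves cannot be told apart in this spread. In RNA of whole tissue, fewer cells of a type and less RNA per cell cannot be told apart either.

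Of 213 members compared in both tables, 15 were 2-fold apart in the gene tables, 16 in the FASTQ-derived tables and 8 the same way in both, against 0.522% of the 11497 genes compared in both tables. Both tables come from the same reads, so the second is no independent check of the first. BC023105 differed most among the latter that have many unique words (70.7%), at 0.21 and 2.30 TPM in the gene tables and 0.26 and 1.77 TPM in the FASTQ-derived tables. Magef1, with 97.4% unique words, went from 0.86 to 1.90 TPM and from 0.95 to 2.27 TPM. Gm16165, a copy of the tubulin gene Tubb4b, went from 2.60 to 0.77 TPM and from 3.06 to 1.1 TPM. By contrast Gm6361 and Gm6565, both copies of Ube2v2 with no unique word, exchanged levels in the gene tables: Gm6361 went from 0.79 to 10.8 TPM and Gm6565 from 9.48 to 0 TPM, while both were at 0 in the FASTQ-derived tables.

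**Figure D5:**
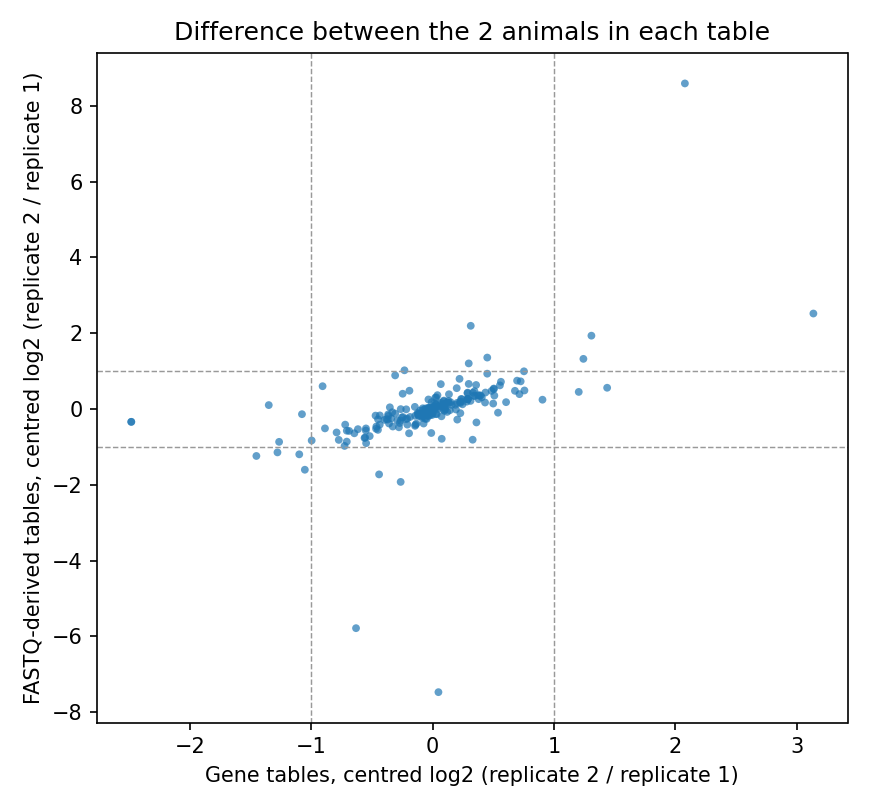
Each point is 1 of 213 members compared in both tables; the axes give the centred log2 ratio of replicate 2 to replicate 1 in the gene tables and in the FASTQ-derived tables, and dashed lines mark 2-fold. Most points lie near the centre, and 8 lie beyond 2-fold in the same direction in both tables.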

How the data were processed

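Per the deposited description files, reads were assigned to mm10 with the GENCODE M21 annotation; the sources used here do not name the aligner or the counter. Per the file headers, the gene tables hold expected counts and TPM, and the FASTQ-derived tables hold estimated counts and TPM per transcript, deposited by the authors. The authors also deposited credibility bounds of TPM, a signal on the TPM scale, at a level that the sources used here do not name.

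Members and lists were chosen with earlier results of these data known. Member transcripts were taken by biotype, and all transcripts of a gene record were summed. Expressed meant 1 TPM or more in both animals. Ratios used TPM + 0.1, which understates differences of low genes. Words of 31 bases were read on the sense strand of the M21 transcripts, and settings from the M21 annotation with bedtools 2.31.1. Sequences come from the M21 transcripts. Tables were handled with Python 3.11.15 and pandas 2.3.3. With 1 group of 2 animals no test was made; the 2-fold rule and the word counts were tested on simulated data. The labels give both animals the same donor identifier, read here as the strain.

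Members named were drawn from lists set by rule, and not every member of these lists is named. The lists were the 10 highest in each table and the 10 farthest apart between the tables in each direction. Further lists were the 5 farthest apart between the animals in each direction, the 2 highest of each source family, and the 10 highest members that were alike in both tables. Their source genes were added. Of the list for the animals, only Gm6361 and Gm6565 are named. Other names were chosen after their values were seen: Zrsr1, Gm26822, Grip2, Gm13050, Gm6548, Gm7832, BC023105, Magef1, Gm16165, Gm11518, Rpl27-ps3, Rpl36 and Gm10358. Alternatives changed the thresholds, the TPM estimate, the pseudocount, the word length, the total, and each animal in turn.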

Additional observations from a re-analysis of the deposited data

How the results depend on the processing

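Of 53 alternatives, 42 left the result within 1.5 times of a count or within 1 SD of a value, 11 moved it and 0 reversed it. Of the 53, 3 were chosen after seeing the data. Some of these outcomes were fixed in advance. With n = 2, leaving out either animal always keeps a mean within 1 SD, and a count cannot reverse. The alignment-derived transcript tables repeated the gene-table results of 350 expressed members and 197 members apart, so they are no separate check. With at least 10 estimated counts in place of 1 TPM, 417 members passed in the FASTQ-derived tables in place of 266. The members' share was 0.425% of expected counts and 0.373% of estimated counts in place of 1.21% and 0.684% of TPM. Without the mitochondrial genes and Rn7s in the total it was 2.63% in the gene tables and 1.46% in the FASTQ-derived tables. Over the full total, the FASTQ-derived share of TPM was 0.547% without Gm7336 and Gm19220 and 0.614% from member transcripts alone, both chosen after seeing the data. Without a filter on level, 492 members lay 2-fold apart between the tables in place of 197. The difference between members with few and with many unique words was -1.22 with 25-base words, -2.91 with 51-base words and -1.40 with a pseudocount of 1. Leaving out either animal gave 382 and 388 expressed members in the gene tables, 288 and 309 in the FASTQ-derived tables, shares of 1.12% and 1.29% and of 0.636% and 0.731%, and 215 and 218 members apart between the tables. No paired analysis was possible because there is 1 group. Depth limits members near 1 TPM, and for members identical to another transcript more depth would not tell the copies apart.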
